A study of Mus musculus with 8 samples.

Results

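The genes described here carry the phosphocreatine and adenine nucleotide reactions of muscle: the creatine kinases Ckm, Ckmt2 and Ckb, the adenylate kinase Ak1, the AMP deaminases Ampd1 and Ampd3, the creatine synthesis enzyme Gatm and the creatine transporter Slc6a8. The 8 members were chosen by name and were looked up among the 21207 gene symbols named in all 8 count matrices, where every member was listed. Single-nucleus RNA sequencing had been run on the gastrocnemius, a calf muscle, of wild-type C57BL/6 mice. The 4 groups were Old mice (20 months), Young mice (3 months), Running mice, which trained on a treadmill for 2 months from an age of 11 months, and Sedentary mice of that age that did not run. Each group had 2 libraries, replicate 1 prepared with 10x reagents and replicate 2 in a second library set made on a different platform, so that no group had 2 libraries of a kind. No transgene, deletion or drug was used, and the sources used here do not give the sex of the mice or how many mice went into a library. Adjusted p-values therefore measure only the spread between these libraries.

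Skeletal muscle stores high-energy phosphate as phosphocreatine. Cytosolic creatine kinase, made of Ckm or Ckb subunits, uses this store to remake ATP next to the myosin heads and calcium pumps, and the mitochondrial form encoded by Ckmt2 recharges creatine where ATP is produced. During hard work Ak1 combines pairs of ADP into ATP and AMP, and AMP deaminase turns AMP into IMP, the first step of the purine nucleotide cycle, which adenylosuccinate synthetase and lyase close. Ampd1 encodes the muscle form of the deaminase, Ampd3 a form first described in red blood cells, Gatm the arginine:glycine amidinotransferase that starts creatine synthesis, chiefly in kidney and pancreas, and Slc6a8 the transporter by which muscle takes creatine up. Fast Type IIb fibres, which contain the myosin heavy chain Myh4, rely mostly on glycolysis, Type IIx (Myh1) and Type IIa (Myh2) fibres hold more mitochondria, and slow fibres contain Myh7.

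In GRCm38 (GENCODE), Ckm spans chr7:19404776-19422841 on the plus strand, Ckmt2 chr13:91853387-91876885 on the minus strand and Ckb chr12:111669361-111672338 on the minus strand. Ak1 lies at chr2:32621758-32635058 (plus), Ampd1 at chr3:103074014-103099720 (plus), Ampd3 at chr7:110768206-110812405 (plus), Gatm at chr2:122594467-122611303 (minus) and Slc6a8 at chrX:73673150-73682502 (plus). RefSeq promoter windows (GRCm38.p6) were held for 6 of the 8 members. The 250 bases before a RefSeq transcript start of the 3 creatine kinase genes are shown because the levels of these related enzymes, given below, were distributed differently over fibre types and other cells. They cover chr7:19410844-19411093 for Ckm, chr13:91876886-91877135 for Ckmt2 and chr12:111672339-111672588 for Ckb, each written 5′ to 3′ on the strand of its gene. The Ckm window lies inside the GENCODE span given above, since the RefSeq start used is downstream of the GENCODE gene start, while those of Ckmt2 and Ckb lie directly before the GENCODE start. Capitals mark the E-box, CANNTG, the letters bound by the myogenic basic helix-loop-helix factors, and, in Ckb, TATAAA.
Ckm: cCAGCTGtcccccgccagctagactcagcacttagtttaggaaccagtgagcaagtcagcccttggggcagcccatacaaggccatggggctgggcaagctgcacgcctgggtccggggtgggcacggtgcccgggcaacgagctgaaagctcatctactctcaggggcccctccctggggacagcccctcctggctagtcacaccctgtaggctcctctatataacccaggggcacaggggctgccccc
Ckmt2: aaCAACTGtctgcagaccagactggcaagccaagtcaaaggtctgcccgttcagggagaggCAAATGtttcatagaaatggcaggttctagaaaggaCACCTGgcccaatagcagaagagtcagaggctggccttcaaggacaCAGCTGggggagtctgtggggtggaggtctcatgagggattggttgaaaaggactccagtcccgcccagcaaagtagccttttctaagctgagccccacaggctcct
Ckb: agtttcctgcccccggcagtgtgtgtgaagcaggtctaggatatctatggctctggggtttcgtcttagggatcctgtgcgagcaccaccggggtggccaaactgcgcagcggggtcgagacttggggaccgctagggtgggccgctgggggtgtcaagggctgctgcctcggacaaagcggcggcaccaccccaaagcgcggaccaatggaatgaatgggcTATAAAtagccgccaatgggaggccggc
The Ckm window held 1 E-box, with the letters CAGCTG, which starts 249 bases before this RefSeq start, a position written as -249. The Ckmt2 window held 4, at -248, -189, -153 and -107. The Ckb window held none, and held TATAAA as part of a match to the MEF2 motif. E-boxes occurred in 66.2% of 32851 RefSeq promoter windows of the same length, CAGCTG in 4271 of them, TATAAA on either strand in 12.4% and the MEF2 motif in 0.508%. These matches describe the letters of the windows only.

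The 8 libraries held 64803 nuclei after filtering. The 10x libraries held 23390969 to 44454427 unique molecular identifiers (UMIs, 1 per captured transcript), with medians of 1664 to 3001 per nucleus, and the second-set libraries held 4839878 to 9278034, with medians of 909 to 1689.5. Among the 10x libraries, pairs shared 30 to 46 nucleus barcodes, or 0.282% to 0.390% of the smaller library, and the second set named its nuclei by serial number, so that sharing could not be counted there. A pair of libraries stood apart: in Old replicate 2, 72.0% of nuclei fell into clusters that no marker list named, and in Sedentary replicate 1, 22.3% did. Of nuclei with enough myosin heavy chain UMIs, 1.17% to 5.60% of the 10x and 6.59% to 28.6% of the second-set nuclei held a mixture of types, and few non-muscle classes could be named in the second set. Levels by class of nuclei are therefore given for the 10x set. Clusters were named from marker genes, none of them a member, and carry "-like" in their names. The myofibre markers were present: their 16 genes summed to between 39760 and 78900 CPM (normalised counts, scaled to the same total in every library) throughout.

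Ampd1 and Ckm were the most abundant members, and Gatm and Ckb the rarest. CPM values were not divided by gene length, so the order within a library reflects both transcript number and how many sites of a transcript could be captured. Ckm, the muscle creatine kinase subunit, ranged from 511 to 1107 CPM in the 10x libraries and from 3997 to 6604 CPM in the second set, a 7.42-fold difference between the medians. Ampd1 ranged from 530.5 to 2001 CPM in the 10x set and from 638 to 2066 CPM in the second set. Ckmt2, the sarcomeric mitochondrial kinase, stood at 165 to 274 CPM and 466 to 939 CPM in the same order. The remaining members were below 150 CPM in every library: Ak1 ranged from 41.8 to 138 CPM over both sets, Ampd3 from 18.6 to 34.3 CPM, Slc6a8 from 10.8 to 40.9 CPM, Ckb from 1.26 to 9.34 CPM and Gatm from 0.840 to 7.18 CPM. Ckb rested on 945 UMIs and Gatm on 409 UMIs in all 8 libraries together, against 266959 for Ckm. The library sets did not overlap for Ckm and Ckmt2 and overlapped for the other 6 members, and groups were compared with the library set in the model.

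**Figure D1:**
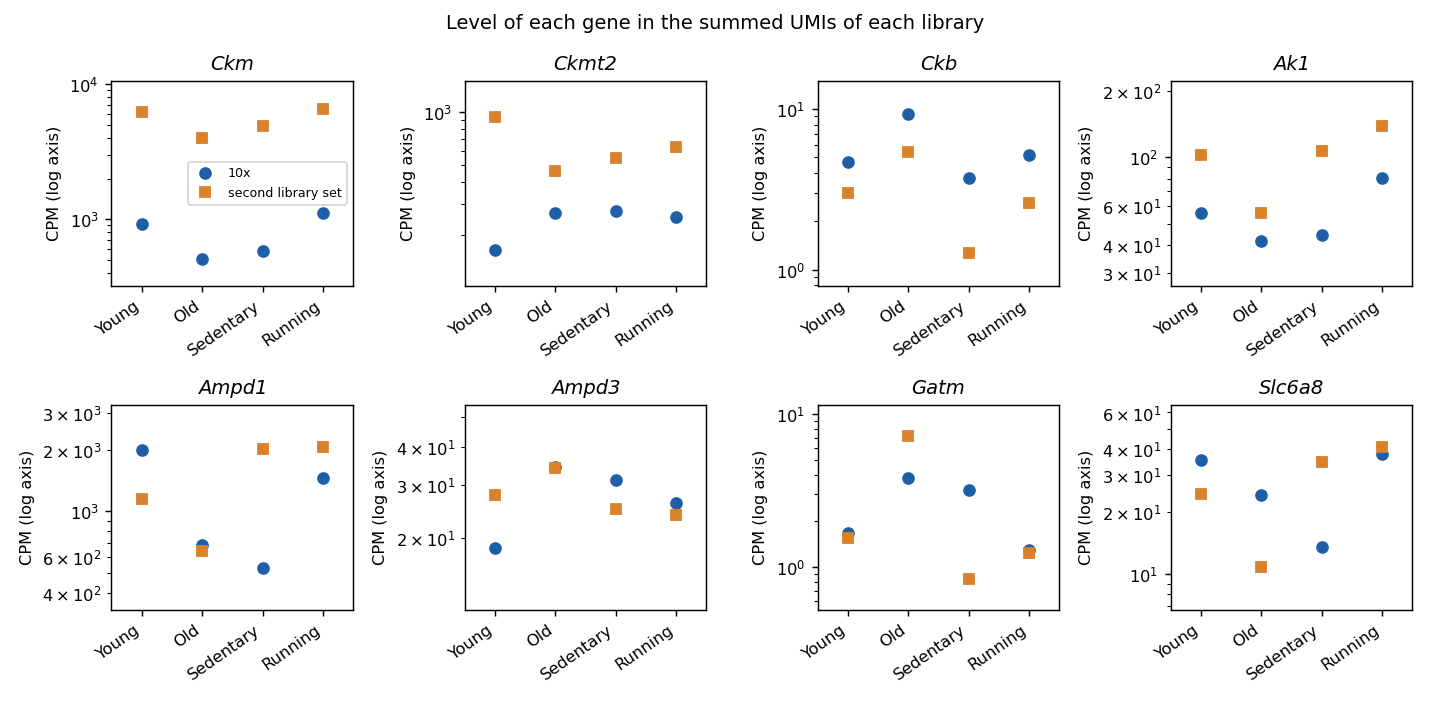
CPM of each gene (y axis, log scale, separate for each gene) in the summed UMIs of each library, with the 4 groups on the x axis and 1 point per library (circles 10x, squares second set). Ckm is higher in every second-set library than in any 10x library, whereas Ak1, Ampd1, Ampd3, Ckb, Gatm and Slc6a8 overlap between the sets.

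Next, the classes of nuclei were compared within the 10x set, where 17 named classes could be quantified, as a description of where each member was transcribed. Ckm and Ampd1 were highest in myofibre classes. In Type IIb-like clusters Ckm had a median of 989 CPM over the 4 libraries and Ampd1 one of 1718 CPM. In fibro-adipogenic progenitor-like nuclei, connective tissue cells that should lack both, the medians were still 323 and 286 CPM, and in endothelial-like nuclei 550 and 402 CPM. In adipocyte-like nuclei they were 182 and 151 CPM. Such values serve below as the level seen in nuclei that should lack a transcript. The part of free RNA and of doublets, which stayed in, was not tested. Ckmt2 separated the fibre classes, with 728 CPM in Type IIa/IIx-like and 798 CPM in slow-like clusters against 162 CPM in Type IIb-like ones and 81.6 CPM in the progenitor-like nuclei. Ak1 and Slc6a8 were modestly higher in myofibres: Ak1 ranged from 53.7 to 100.2 CPM in Type IIb-like and from 19.5 to 31.4 CPM in progenitor-like nuclei, and Slc6a8 from 15.9 to 47.5 CPM and from 8.39 to 20.3 CPM.

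Ckb, Gatm and Ampd3 showed another distribution. Ckb, the brain-type subunit, had a median of 0.682 CPM in Type IIb-like nuclei, against 30.3 CPM in macrophage-like, 22.7 CPM in pericyte-like and 17.0 CPM in progenitor-like nuclei. Schwann cell-like and T cell-like nuclei had higher medians that rested on 9 and 13 UMIs. Its level in macrophage-like nuclei was 22.3 to 36.0 CPM over the 4 libraries, above the 0.594 to 2.88 CPM of the Type IIb-like ones in each. Gatm was concentrated in Schwann cell-like nuclei, the myelinating glia of the muscle nerves. They held 42 Gatm UMIs in 37 nuclei of Old replicate 1 (367 CPM) and 24 UMIs in 27 nuclei of Sedentary replicate 1 (559 CPM), the only libraries with 20 or more such nuclei. Macrophage-like nuclei came next, with 29.5 to 40.1 CPM, while Type IIb-like nuclei stayed at 0.383 to 0.685 CPM. When each nucleus was thinned to 500 UMIs, 18.9% and 25.9% of the Schwann cell-like nuclei kept a Gatm UMI (51.4% and 44.4% before thinning), against at most 0.0592% of progenitor-like nuclei. Ampd3 was lower in Type IIb-like nuclei (median 16.0 CPM) than in slow-like (83.6 CPM), pericyte-like (62.9 CPM), muscle stem cell-like (60.4 CPM) and macrophage-like nuclei (58.0 CPM). The Ampd3 values rested on small counts, for example 94 UMIs in 522 pericyte-like nuclei.

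**Figure D2:**
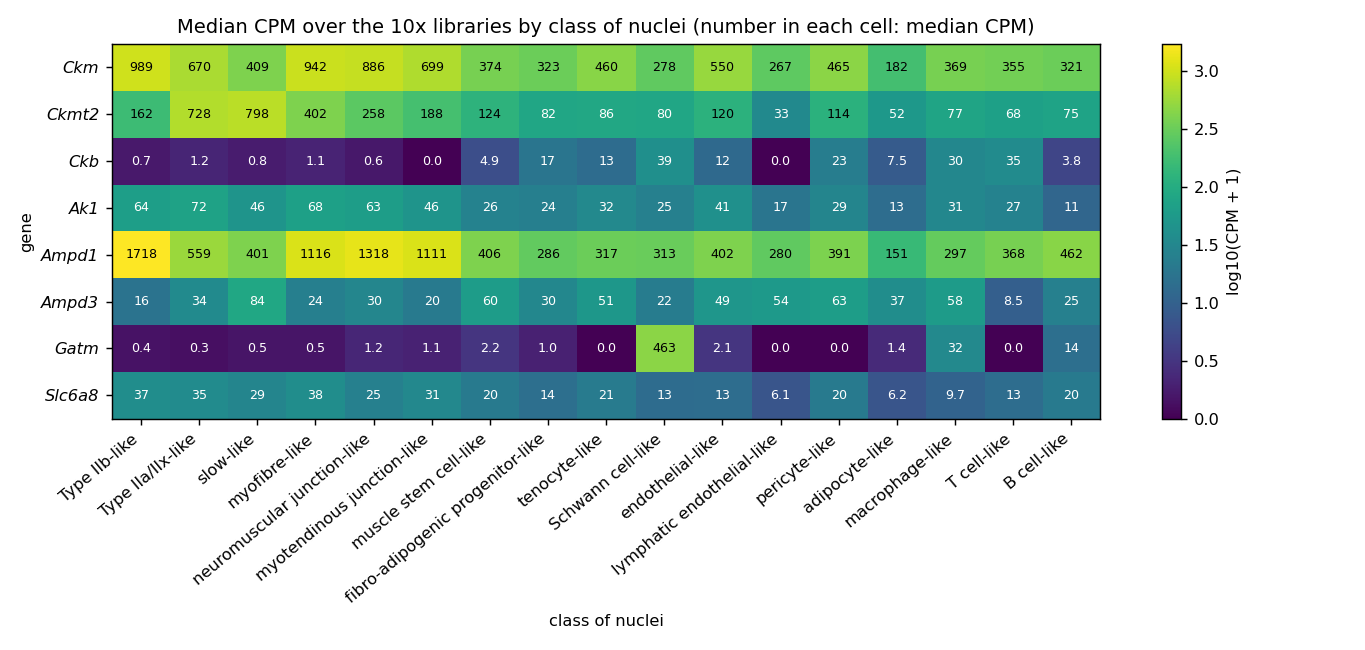
Median CPM over the 10x libraries (number in each cell; colour, log10 of CPM + 1) for the 8 genes (rows) in the 17 named classes of nuclei (columns); medians are over the libraries with at least 20 nuclei of the class, which is 2 for slow-like, Schwann cell-like and B cell-like nuclei. Gatm peaks at 463 CPM in Schwann cell-like nuclei, and Ampd1 and Ckm keep 151 to 550 CPM in non-muscle classes.

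Fibre types were then compared within libraries. A nucleus of a myofibre-like cluster was given a type when it held at least 3 myosin heavy chain UMIs and at least 60% of them came from Myh4, Myh1, Myh2 or Myh7, so that no member entered the assignment. The 10x set gave 20879 Type IIb, 2251 Type IIx, 1777 Type IIa and 490 slow nuclei, and the second set 10463, 237, 330 and 70. Type IIb-like clusters of the second set held 7443 nuclei, so its Type IIb nuclei included some from other myofibre-like clusters. Young replicate 2 had 2771 Type IIb nuclei, while its Type IIb-like, Type IIa/IIx-like and slow-like clusters held 1342, 1592 and 1043 nuclei. In the second set 58.6% of the Type IIx and 59.4% of the Type IIa nuclei had a myosin share under 70%, close to the assignment threshold, against 11.2% and 11.6% in the 10x set. UMIs were summed by type and library where at least 20 nuclei were present, which left Type IIx and Type IIa in 7 libraries (not Running replicate 2) and slow nuclei in 3.

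Ckmt2 and Ampd3 were higher, and Ckm and Ampd1 lower, in nuclei assigned by their myosin UMIs to each of the other fibre types than in Type IIb nuclei. For Ckm in slow fibres of the second set the direction turned when nuclei were grouped by cluster instead, as given below. These 4 of the 6 members tested were called at an adjusted p under 0.05 in each comparison (edgeR's quasi-likelihood test with Benjamini-Hochberg adjustment over all genes), while Ak1 and Slc6a8 were not. Calls were common among all 11187 genes tested: 17.8% for Type IIx, 31.2% for Type IIa and 26.4% for slow against Type IIb. Their split depended on the scaling: for Type IIx 827 genes were called higher and 1161 lower with TMM, against 1050 and 934 with DESeq2's median-ratio size factors (RLE) in edgeR, and for Type IIa 1416 and 2079 against 1753 and 1542. Ckb and Gatm fell below the filter on low counts, with 9 and 3 UMIs in the 10x Type IIx nuclei and 11 and 1 in the 10x Type IIa nuclei.

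Ckmt2 was the member with the largest rise in Type IIx and Type IIa nuclei. In the 10x libraries Type IIb nuclei held 192 CPM (Old), 198 CPM (Young), 232 CPM (Running) and 163 CPM (Sedentary), Type IIx nuclei 954, 646, 683 and 444 CPM, and Type IIa nuclei 1223, 1069, 932 and 714 CPM. Neither Type IIx nor Type IIa overlapped with Type IIb in either library set. The ratio of Type IIx to Type IIb was above 1 in 7 of 7 libraries, from 2.11 to 4.98, and that of Type IIa to Type IIb from 2.75 to 6.39. On the log2 scale the fitted differences were 1.32 ± 0.15 (SE, 7 libraries, adjusted p = 1.6e-08) for Type IIx, 1.89 ± 0.15 (adjusted p = 2.1e-12) for Type IIa and 1.47 ± 0.19 (adjusted p = 2.7e-07) for slow nuclei. Thinned to 500 UMIs, 30.7% to 44.0% of 10x Type IIa nuclei held a Ckmt2 UMI, compared with 8.15% to 11.2% of Type IIb nuclei and 0.975% to 4.54% of progenitor-like nuclei. Before thinning these shares were 71.9% to 95.0%, 30.4% to 52.1% and 7.19% to 14.2%. Thinning left out 2 of 8843 progenitor-like nuclei and no fibre nucleus.

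Ampd1, the AMP deaminase of fast muscle, was lower in the other fibre types than in Type IIb nuclei, while the order of Type IIx and Type IIa varied between libraries. Its 10x values in Type IIb nuclei were 1210 CPM for Old, 2862 for Young, 2026 for Running and 847 for Sedentary mice. Type IIx nuclei of the same libraries held 176, 835, 775 and 288 CPM, and Type IIa nuclei 272, 545.5, 452 and 297 CPM. Every library was lower in Type IIx and in Type IIa than in Type IIb, by 1.34-fold to 6.88-fold and by 1.84-fold to 5.25-fold. The fitted log2 differences were -1.66 ± 0.18 (adjusted p = 6.6e-09) for Type IIx, -1.97 ± 0.18 (adjusted p = 5.3e-11) for Type IIa and -1.58 ± 0.25 (adjusted p = 6.9e-06) for slow nuclei. Progenitor-like nuclei of these 4 libraries held 194, 356, 416 and 216.5 CPM of Ampd1. In Old replicate 1 the Type IIx value was thus below the progenitor-like level and in the other libraries above it. Endothelial-like nuclei of these libraries held 285, 462, 503 and 341 CPM. That was above the Type IIx value in Old and Sedentary replicate 1, and above the Type IIa value in all but Young replicate 1. How much Ampd1 RNA Type IIx, Type IIa and slow nuclei made themselves could not be measured here.

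Ckm, the myofibrillar creatine kinase, was lower outside Type IIb by a smaller amount. Its 10x values for Old, Young, Running and Sedentary mice were 730, 1202, 1369 and 746 CPM in Type IIb, 396, 1199, 946 and 493 CPM in Type IIx and 459, 1011, 774 and 411 CPM in Type IIa nuclei. The Young library showed almost no difference between Type IIb and Type IIx. The log2 differences were -0.53 ± 0.13 for Type IIx (adjusted p = 0.0032), -0.73 ± 0.13 for Type IIa (adjusted p = 3.2e-05) and -1.08 ± 0.19 for slow nuclei (adjusted p = 3.1e-05). Of 7 libraries, 6 were lower in Type IIx and 6 in Type IIa. The exception was Old replicate 2, with 6731 CPM in Type IIb, 7465 in Type IIx and 7832 in Type IIa nuclei. The call for Type IIx was not kept with libraries scaled by their total count (-0.35, adjusted p = 0.056), and none of the 3 Ckm calls was kept in the second set alone. Slow nuclei held 401 CPM in Old replicate 1 and 389 CPM in Sedentary replicate 1, where progenitor-like nuclei held 270 and 366 CPM. Endothelial-like nuclei there held 375 and 450 CPM, so that in Sedentary replicate 1 they were above slow and Type IIa nuclei.

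Ampd3 rose as Ampd1 fell. In the 10x libraries of Old, Young, Running and Sedentary mice it stood at 16.4, 12.1, 19.9 and 17.8 CPM in Type IIb, at 62.7, 27.3, 22.3 and 31.4 CPM in Type IIx, and at 77.2, 67.1, 40.4 and 41.6 CPM in Type IIa nuclei. Ampd3 was higher in Type IIx than in Type IIb in 6 of 7 libraries and higher in Type IIa in 7 of 7. The exception was Young replicate 2, with 17.3 CPM in Type IIx (4 UMIs) and 24.5 CPM in Type IIb nuclei. Slow nuclei held 96.8 CPM in Old and 80.3 CPM in Sedentary replicate 1, above the 27.0 and 37.8 CPM of progenitor-like nuclei. These held 23.7 CPM in Young and 33.4 CPM in Running replicate 1. Type IIx values were thus below the progenitor-like level in Running and Sedentary replicate 1 and above it in Old and Young replicate 1. Type IIa values were above the progenitor-like level in all of them. Endothelial-like nuclei of Old, Young, Running and Sedentary replicate 1 held 43.4, 56.25, 54.4 and 41.8 CPM. Type IIx was above that level only in Old replicate 1, and Type IIa only in Old and Young replicate 1. The log2 differences were 0.86 ± 0.22 for Type IIx (adjusted p = 0.0039), 1.40 ± 0.22 for Type IIa (adjusted p = 3.2e-06) and 1.85 ± 0.29 for slow nuclei (adjusted p = 5.6e-06). The Type IIx call rested on Old replicate 1: without it the difference was 0.57 (adjusted p = 0.12). In the second set, where Type IIx nuclei held 16 Ampd3 UMIs and Type IIa nuclei 30, no Ampd3 difference was called.

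Ak1, the cytosolic adenylate kinase, and Slc6a8, the creatine transporter, did not pass the test in any fibre type. Ak1 differed from Type IIb by -0.21 ± 0.14 in Type IIx, -0.10 ± 0.14 in Type IIa and -0.46 ± 0.23 in slow nuclei on the log2 scale. Slc6a8 differed by -0.08 ± 0.17, 0.06 ± 0.18 and 0.39 ± 0.28. Among 7 libraries Ak1 was lower in Type IIx than in Type IIb in 5, and Slc6a8 was higher in 5.

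**Figure D3:**
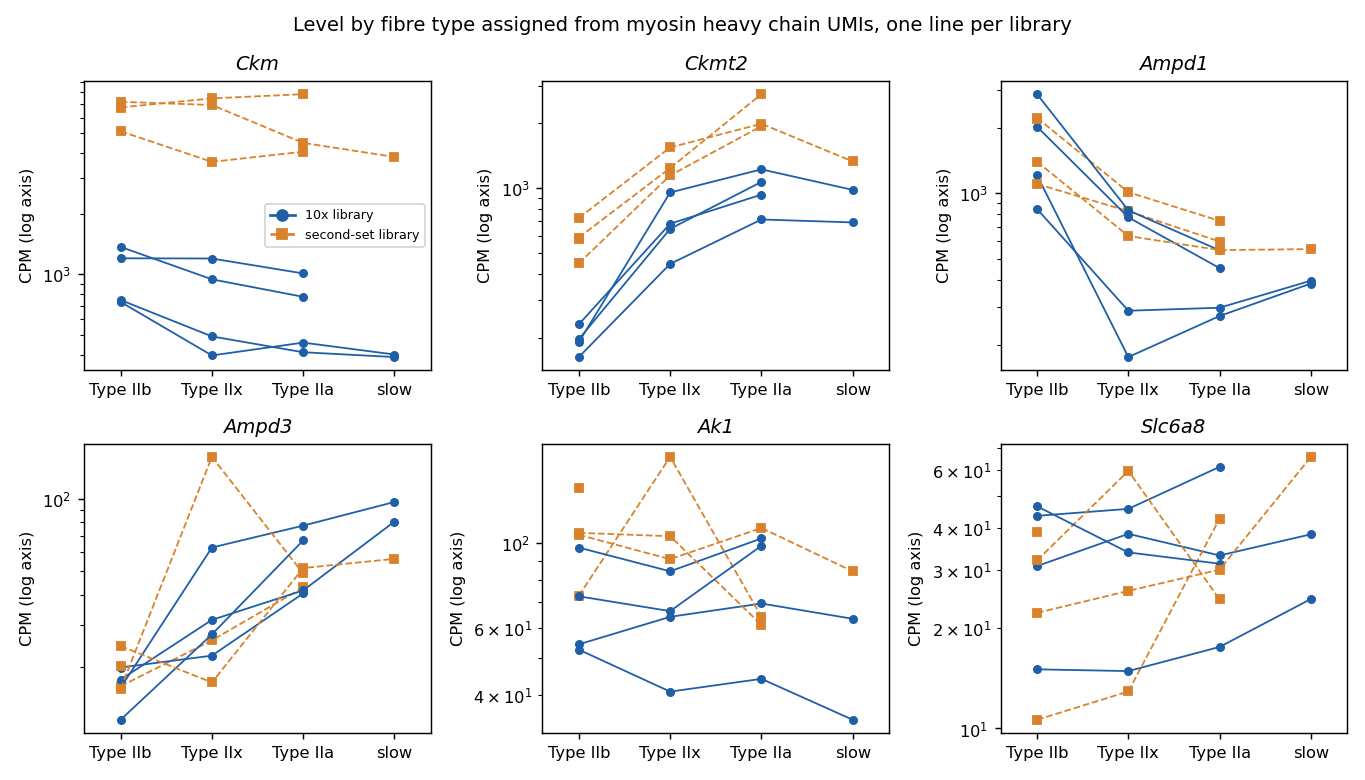
CPM (y axis, log scale) of 6 genes in nuclei of each fibre type (x axis), with 1 line per library (blue solid, 10x; orange dashed, second set; Running replicate 2 has Type IIb only). Ckmt2 lines rise and Ampd1 lines fall from Type IIb to Type IIa in all 7 libraries, while Ak1 and Slc6a8 lines go either way.

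The slow nuclei of the second set depended on how they were recognised. A pair of clusters there carried slow-fibre markers. The cluster of 1013 nuclei led by the small contractile and oxygen-binding genes Myl3 and Mb held 16970 CPM of Ckm, 1700 CPM of Ckmt2, 230.4 CPM of Ak1 and 1061 CPM of Ampd1. The cluster of 542 nuclei led in part by Myh7b and Myh7 held 4345, 971.5, 71.5 and 924 CPM. The 42 nuclei of Young replicate 2 that were assigned to slow fibres by their Myh7 UMIs, which the fits used, held 3824 CPM of Ckm, 1331 CPM of Ckmt2, 84.4 CPM of Ak1 and 553 CPM of Ampd1. In that library, Type IIb nuclei assigned by myosin held 39013 Ckm UMIs, against 11420 in Type IIb-like and 28976 in slow-like clusters. Over both clusters together (1555 nuclei), Ckm stood at 10890 to 13050 CPM in the 4 libraries. Type IIb-like clusters held 4448 to 6496 CPM. This excess, opposite to the fitted difference, came from the Myl3 and Mb cluster. In Old, Young, Running and Sedentary replicate 2 the Myh7b and Myh7 cluster held 3542, 3997, 5901 and 4551 CPM of Ckm. Each was below the Type IIb-like value of its library (5202, 4448, 6496 and 5053 CPM). Over both clusters, Ckmt2 (1064 to 1687 CPM against 375.7 to 531.6 CPM) was higher, and Ampd1 was lower within each library, as in the fits. In the 10x set, slow-like clusters held 403 and 415 CPM of Ckm, below every Type IIb-like value (755.6 to 1442 CPM).

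The genes around the members were taken from a list of 48 adenylate kinases, nucleotidases, purine enzymes and mitochondrial nucleotide carriers, of which 47 were found and 35 passed the filter in the fibre comparison. In Type IIx nuclei 7 of the 35 rose and 1 fell, where 17.8% of all 11187 genes tested were called. Adk, adenosine kinase, rose by 1.20 ± 0.16 on the log2 scale (adjusted p = 4.5e-07), Nt5c2, a cytosolic nucleotidase that acts on IMP, by 1.19 ± 0.17 (adjusted p = 1.6e-06) and Slc25a3, the mitochondrial phosphate carrier, by 0.72 ± 0.12 (adjusted p = 1.6e-05). The gene that fell was Nt5e, the ectonucleotidase CD73 (-1.48 ± 0.32, adjusted p = 0.00073). In Type IIa nuclei 7 of the 35 rose and 2 fell, where 31.2% of all genes tested were called. The leading ones were Nt5c2 (1.49 ± 0.17), Adk (1.28 ± 0.16) and Slc25a3 (0.78 ± 0.12), and those that fell were Nt5e (-0.91 ± 0.32) and Ppat, the first enzyme of purine synthesis (-0.72 ± 0.19). Over the 35 genes the median log2 difference was 0.06 in Type IIx and 0.01 in Type IIa, beside -0.11 and -0.11 over all genes tested.

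In slow nuclei 4 of the 35 rose and 6 fell, where 26.4% of all genes tested were called. The direction of this split depended on the scaling. Nt5c2 (2.13 ± 0.22), Slc25a3 (0.94 ± 0.16) and Gda, guanine deaminase (1.86 ± 0.48), rose, and Ppat fell (-1.24 ± 0.31). Vdac3, an outer membrane channel, was called lower at -0.71 ± 0.19 and Adssl1, the muscle adenylosuccinate synthetase of the purine nucleotide cycle, at -0.63 ± 0.18. With RLE scaling these became -0.44 (adjusted p = 0.065) and -0.34 (adjusted p = 0.17), and the split became 10 higher and 1 lower. The same change of scaling moved the median over all genes tested from -0.14 to 0.11 and the calls from 1203 higher and 1750 lower to 1723 and 1006.

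**Figure D4:**
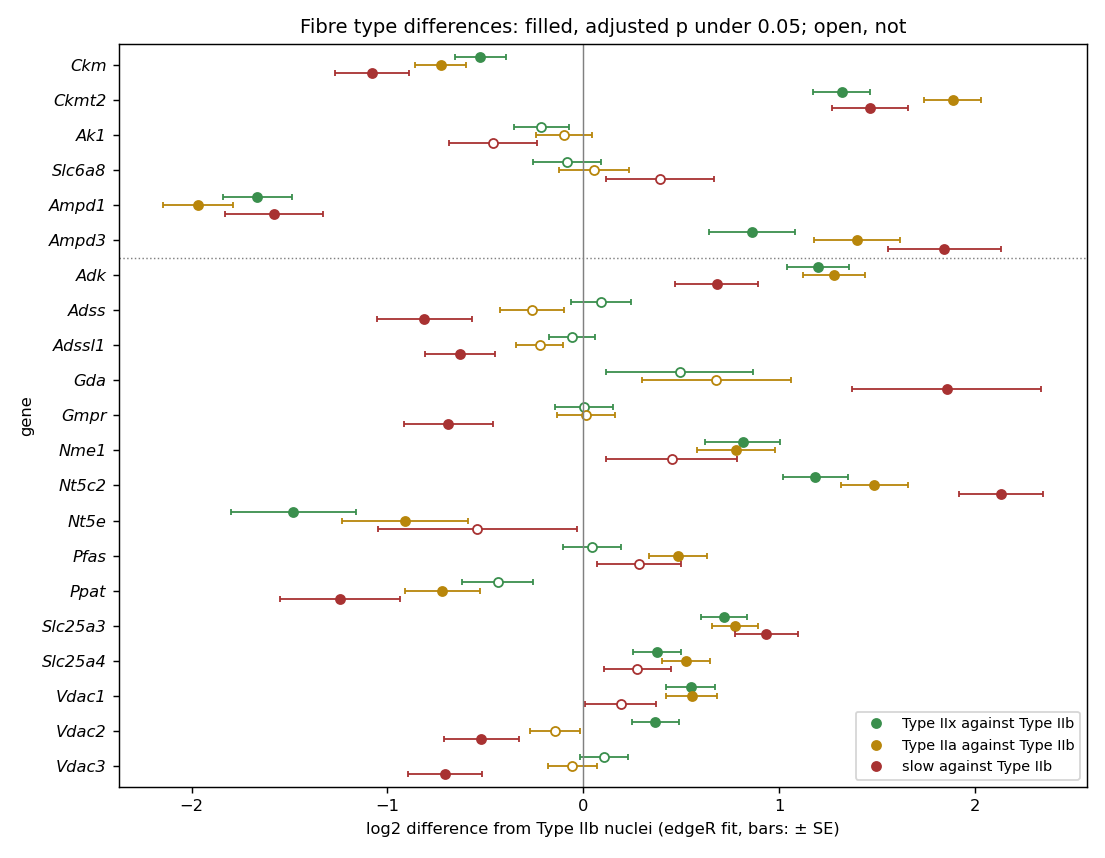
Fitted log2 difference from Type IIb nuclei (x axis, bars ± SE over libraries) for 6 of the 8 genes (above the dotted line) and for each gene of the wider list that was called in at least 1 comparison (below it); filled points have an adjusted p under 0.05. Ckmt2 and Ampd3 lie to the right and Ckm and Ampd1 to the left in all 3 types; the slow-type points of Adss, Adssl1, Gmpr, Vdac2 and Vdac3 lose their calls under RLE scaling.

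Genes whose levels ran most like those of each member were taken over 59 class-by-library sums of the 10x set (17 classes), which share libraries and depth. The values are Pearson's r of log2(CPM + 1) and are a description. Ckm ran with Atp2a1 (0.948), the calcium pump of fast fibres, with Casq1 (0.925), the calcium store protein calsequestrin, and with Tnnt3 (0.915), fast troponin T. Ampd1 ran with Ky (0.932), Actn3 (0.932), the Z-disc actinin of fast fibres, and Klhl31 (0.921). Ckmt2 ran with Got2 (0.878), a mitochondrial aminotransferase, with Itgb6 (0.873) and with Actn2 (0.849). Ak1 ran with Hjv (0.836), Nctc1 (0.835) and Cacna1s (0.828), the voltage sensor of muscle. Slc6a8 ran with Slc25a4 (0.759), the muscle ADP/ATP carrier, Tmod4 (0.752) and Plpp7 (0.734). For the members found mainly outside fibres the highest values were 0.777 for Ckb with Trerf1, ahead of Eea1 (0.775) and Dock11 (0.758), and 0.750 for Gatm with Abhd12, ahead of Wdfy2 (0.674) and Cab39l (0.671). Ampd3 ran with Cyp20a1 (0.810), Ercc5 (0.704) and D430042O09Rik (0.697). Among the members themselves Ckm and Ampd1 were most alike (0.896), followed by Ckm and Ak1 (0.807), whereas Ckm and Ckmt2 reached 0.445.

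The effect of age was addressed by comparing Old with Young libraries. Over all nuclei no member was called, and neither was any of the other genes: 0 of 20324 genes passed (0%), with 557 at an unadjusted p under 0.05 and 0 called by DESeq2. The same fit missed even the strongest changes put into simulated data, so the lack of a call does not show that a gene did not change. Ckm was 511 CPM in Old and 922 CPM in Young replicate 1, and 3997 and 6198 CPM in replicate 2, so that both sets were lower in Old mice (log2 difference -1.15 ± 0.43, adjusted p = 0.69). Ampd1 was 684 and 2001 CPM in the 10x set and 638 and 1143 CPM in the second set (-1.66 ± 0.70, adjusted p = 0.69). Ak1 stood at 41.8 against 56.2 CPM and 56.1 against 103 CPM (-1.01 ± 0.43), and Slc6a8 at 24.2 against 35.5 CPM and 10.8 against 24.4 CPM (-1.10 ± 0.69).

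Gatm, Ckb and Ampd3 lay on the other side of 0. Gatm was 3.81 CPM in Old against 1.67 CPM in Young replicate 1 and 7.18 against 1.54 CPM in replicate 2 (1.33 ± 0.84). The replicate 2 values rested on 36 and 14 UMIs, and 27 of the 36 in Old replicate 2 lay in unnamed clusters. Ckb was 9.34 against 4.67 CPM and 5.39 against 2.98 CPM (0.52 ± 0.62), and Ampd3 34.3 against 18.6 CPM and 34.1 against 27.7 CPM (0.17 ± 0.41). Ckmt2 went opposite ways in the sets, with 266 against 165 CPM and 466 against 939 CPM (-0.59 ± 0.52). Of the 8 members 3 were above 0, and the median over members was -0.80 against 0.19 over all genes. Fits scaled by total counts raised the median of all genes to 0.61 and changed no member's sign.

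The make-up of the libraries moved with these values. Myofibre-like clusters held 47.5% of nuclei in Old and 63.3% in Young replicate 1, and 23.6% and 91.0% in replicate 2. Unnamed clusters held 72.0% of nuclei in Old and 8.91% in Young replicate 2, so the replicate 2 shares depend on which clusters could be named. The unnamed nuclei of Old replicate 2 held 3295 CPM of Ckm, and how many came from fibres was not tested. The summed markers of Schwann cells (5 of 5 detected) stood at 191 and 76.5 CPM in the 10x set and at 162 and 71.0 CPM in the second set, and those of macrophages (8 of 8 detected) at 463 and 299 CPM and at 332 and 87.5 CPM. Their part in the Gatm and Ckb values was not tested. By myosin, Type IIx, IIa and slow nuclei made up 19.3% of fibre-typed nuclei in Old and 4.31% in Young replicate 1. In replicate 2 they made up 15.9% and 11.3%. With nuclei grouped by cluster, the replicate 2 direction turned. Type IIb-like, Type IIa/IIx-like and slow-like clusters held 695, 186 and 199 nuclei in Old and 1342, 1592 and 1043 in Young replicate 2. The part of these nuclei in the Ckmt2 values was not tested. Fewer nuclei of a type and less RNA per nucleus cannot be told apart in these sums.

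Within Type IIb nuclei Ckmt2 was 192 against 198 CPM in the 10x set and 589 against 726 CPM in the second set (-0.39 ± 0.23). None of the 8 members was called in Type IIb nuclei, where 0 of 17285 genes passed (0%), with 767 at an unadjusted p under 0.05 and 6 called by DESeq2. Ampd1 was 1210 against 2862 CPM and 1104 against 1399 CPM (-1.11 ± 0.48, adjusted p = 0.98), Ckm 730 against 1202 CPM and 6731 against 7179 CPM (-0.60 ± 0.28), and Ak1 54.4 against 72.6 CPM and 72.8 against 105 CPM (-0.66 ± 0.27). With nuclei grouped by cluster, the second-set direction of Ckm turned. Type IIb-like clusters held 5202 CPM in Old and 4448 CPM in Young replicate 2, and 756 and 1201 CPM in the 10x set. Slc6a8 differed by -0.80 ± 0.54 and Ampd3 by -0.25 ± 0.39. Ckb rested on 51 and 17 UMIs in the 10x and 7 and 16 UMIs in the second-set Type IIb nuclei of Old and Young mice, and Gatm on 16 and 18 UMIs in the 10x and 6 and 10 in the second set, so that these 2 members could hardly be measured within fibres.

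In Type IIx nuclei none of 6 members was called, and 0.118% of 11028 genes were. Ampd1 was 176 CPM in Old and 835 CPM in Young replicate 1, and 827 and 635 CPM in replicate 2, which is opposite directions. The fitted difference was -1.19 ± 0.42 (adjusted p = 0.80). Without Old replicate 2 it was -1.95 (adjusted p = 0.025) and without Young replicate 2 -2.16 (adjusted p = 0.037), but each of these fits leaves 1 library in an arm, which is then assumed to vary like the other groups. The 10x value in Old mice lay below that of progenitor-like nuclei, 194 CPM. Whether the age difference itself differed between Type IIx and Type IIb was tested as an interaction, and 0 of 6 members were called (0.0558% of 10761 genes were). Among the members Ampd3 had the largest value, 1.15 ± 0.69 (adjusted p = 1.0).

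The effect of exercise was addressed by comparing Running with Sedentary libraries. No member was called over all nuclei, where 0 of 20324 genes passed (0%), with 98 at an unadjusted p under 0.05 and 0 called by DESeq2. Of the 8 fitted differences 6 lay above 0. Ckm was 1107 CPM in Running and 578 CPM in Sedentary replicate 1, and 6604 and 4926 CPM in replicate 2 (0.68 ± 0.43, adjusted p = 1.0). Ak1 was 80.7 against 44.4 CPM and 138 against 107 CPM (0.60 ± 0.42). Ampd1 was 1462 against 530.5 CPM in the 10x set and 2066 against 2003 CPM in the second set (0.51 ± 0.69), and Slc6a8 37.8 against 13.5 CPM and 40.9 against 34.9 CPM (0.68 ± 0.69). Ckb stood at 5.19 against 3.70 CPM and 2.60 against 1.26 CPM (0.76 ± 0.64). The differences of Ckmt2 (0.07 ± 0.50), Ampd3 (-0.14 ± 0.41) and Gatm (-0.59 ± 0.86) were smaller than their standard errors, as were those of Ampd1 and Slc6a8.

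Sedentary replicate 1 carried most of the Ampd1 and Slc6a8 values: without it the log2 differences were -0.36 and -0.17. In that library Type IIx, IIa and slow nuclei made up 39.2% of fibre-typed nuclei, against 14.6% in Running replicate 1, 4.06% in Sedentary replicate 2 and 0.545% in Running replicate 2. In Type IIb nuclei, where 0 of 8 members and 0 of 17285 genes were called (0%, with 307 at an unadjusted p under 0.05 and 0 called by DESeq2), Ampd1 was 2026 against 847 CPM in the 10x set and 2190 against 2225 CPM in the second set (0.42 ± 0.48). Ckm was 1369 against 746 CPM and 6712 against 5127 CPM (0.60 ± 0.28), Ckmt2 232 against 163 CPM and 579 against 446 CPM (0.40 ± 0.23), and Ak1 97.3 against 52.7 CPM and 139 against 106 CPM (0.58 ± 0.26). Slc6a8 differed by 0.72 ± 0.53 and Ampd3 by 0.19 ± 0.37. The fitted Type IIb difference was above 0 for 7 of the 8 members, with a median of 0.41 against 0.03 over all genes, and every adjusted p was 1.0.

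In Type IIx nuclei, which only Running replicate 1 represented among Running libraries, the spread came from the other groups, and this lone library was assumed to vary like them. There 0 of 6 members were called (0.227% of 11028 genes were). Ckm stood at 946 CPM in Running and 493 CPM in Sedentary replicate 1 and at 3616 CPM in Sedentary replicate 2 (1.10 ± 0.47), and Ampd1 at 775, 288 and 1012 CPM (1.15 ± 0.49). The test of a different effect in Type IIx and Type IIb called 0 of 6 members and 0.00929% of 10761 genes.

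**Figure D5:**
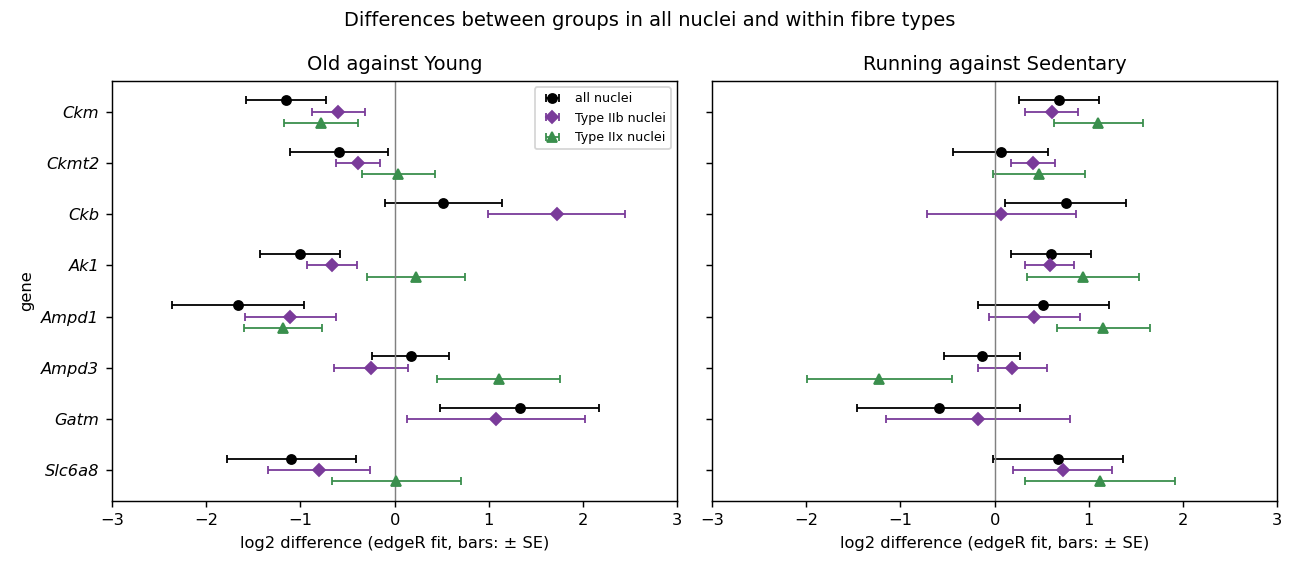
Fitted log2 differences (x axis, bars ± SE) of the 8 genes (rows) for Old against Young (left) and Running against Sedentary (right), in all nuclei (circles), Type IIb nuclei (diamonds) and Type IIx nuclei (triangles; Ckb and Gatm were filtered out there). No point passes an adjusted p of 0.05, and Running has 1 library in Type IIx nuclei; Ckm and Ampd1 lie below 0 on the left and above 0 on the right in all 3 sets of nuclei.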

How the data were processed

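The deposited matrices hold UMI counts per gene and nucleus. The authors made those of replicate 1 with Cell Ranger 6.1.2 and those of replicate 2 with PISA, both on mm10, and used Seurat 4.1.1 for their own analysis. Here the study's filter was applied, which asks for over 200 detected genes, below 6000, and a mitochondrial share below 6% (64803 of 65280 nuclei kept), and 12 mitochondrial and 83 ribosomal genes were dropped. Nuclei were clustered per library set (scanpy 1.11.5, leidenalg 0.10.2, 2000 variable genes, 30 components, 20 neighbours, resolution 1.0) without the members or the wider gene list, and clusters were named from 20 marker lists. Scrublet called 2.56% to 4.72% of nuclei in 3 libraries and 0 in the other 5, so predicted doublets stayed in, and an alternative left out the 6% of highest score. The counts were summed per library, or per library and fibre type with at least 20 nuclei, and tested with edgeR 4.0.16 (quasi-likelihood, TMM scaling, filterByExpr, R 4.3.3, Benjamini-Hochberg threshold 0.05). The design held group and library set (3 residual degrees of freedom), or, between fibre types, library and type. DESeq2 1.42.0, other scalings, other filters and leaving out each library were alternatives. CPM are summed counts scaled to the same total in every sum.

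A pair of fits was tested on simulated data. That of Type IIx against Type IIb recovered most changed genes, and that of Old against Young over all nuclei recovered none. Named genes were the members, the 3 called genes of the wider list with the smallest p in each direction, the 3 genes most like each member (among genes whose mean log2 CPM reached 5) and the myosin heavy chains. Genes outside this rule were named where a count or a change of call rested on them. The members and lists were chosen with earlier results of these data known. The labels carry no replicate numbers, so the numbers here follow accession order and pair no libraries. Whether counting used strand is not given in the sources used here. Depth limits Ckb and Gatm most.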

Additional observations from a re-analysis of the deposited data

Results flagged for a closer look

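Ckmt2 moved in opposite directions in the 2 library sets in both group comparisons, and Gatm did so for Running against Sedentary. As log2 ratios of CPM in all nuclei, Ckmt2 in Old against Young was 0.69 for the 10x libraries and -1.01 for the second set, Ckmt2 in Running against Sedentary was -0.12 and 0.20, and Gatm in Running against Sedentary was -1.31 and 0.55. Each ratio compares 1 library with 1 library, and the difference between the sets was not tested.

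Unnamed clusters of the second set, which no class level above used, held members above every named cluster of that set. Ampd3 stood at 129.4 CPM (44 UMIs) in a cluster of 227 nuclei led by A430010J10Rik, Sh3d19 and Gm34804, and was between 111 and 155 CPM in each of the 4 libraries. Ckb stood at 16.9 CPM (15 UMIs) in a cluster of 573 nuclei that matched several connective tissue and vessel lists at a like level. Gatm stood at 6.86 CPM (27 UMIs) in the cluster of 3630 nuclei led by very long genes, and all 27 UMIs came from Old replicate 2. These clusters were picked out after their values were seen.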

How the results depend on the processing

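Of 959 recomputed values, 28 reversed, 9 lost and 2 gained a call, and 5 counts of members called moved by over 1.5 times. Total-count scaling and the alternatives for the interaction were chosen after seeing the data. In the second library set alone, 2.0 of 6 members were called in each of the 3 fibre comparisons (Ckmt2 and Ampd1), and Ampd3 (1.15 in Type IIx, 1.22 in Type IIa, 1.51 in slow) and Ckm (-0.27, -0.42, -0.86) lost their calls; slow nuclei there came from 1 library, which is assumed to vary like the other sums. Ckm in Type IIx was -0.35 under total-count scaling. The uncalled Ak1 difference in Type IIa turned to 0.02 with RLE scaling and with DESeq2, 0.07 with total counts, 0.04 in the 10x libraries and 0.01 without restriction to myofibre clusters, and that in Type IIx to 0.10 in the second set. The uncalled Slc6a8 difference in Type IIx turned to 0.06 with total counts, 0.33 in the second set, 0.04 with stricter fibre types and 0.01 without restriction, and that in Type IIa to -0.0 without a filter and -0.09 with stricter types.

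Replicate numbers pair no libraries, so the block was the library set, or the library between fibre types. Without this block Ckm in Running against Sedentary Type IIx nuclei was -0.84, Ckm in Type IIx against Type IIb -0.43 (adjusted p = 0.15, edgeR) and Slc6a8 in Type IIa -0.03, and no other direction or call changed.

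Leaving out 1 library at a time, members called in Old against Young Type IIx nuclei ranged from 0.0 to 1.0. Between groups each such fit leaves 1 library in an arm, assumed to vary like the other groups. In all nuclei, Old against Young, Ampd3 ranged from -0.21 to 0.53 and Ckmt2 from -1.34 to 0.18. In all nuclei, Running against Sedentary, Ampd1 ranged from -0.36 to 2.07, Ckmt2 from -0.02 to 0.17, Gatm from -1.24 to 0.56 and Slc6a8 from -0.17 to 2.08. In Type IIb nuclei Ampd3 (Old against Young) ranged from -0.73 to 0.20, Ampd1 (Running against Sedentary) from -0.32 to 1.54 and Slc6a8 from -0.10 to 1.91. Ckm in Type IIx nuclei (Old against Young) ranged from -1.67 to 0.02. Between fibre types, Slc6a8 in Type IIx ranged from -0.22 to 0.08, Ak1 in Type IIa from -0.24 to 0.0 and Ampd3 in Type IIx from 0.57 to 1.14. The causes were not tested. Stricter fibre types within Type IIx, and Running against Sedentary Type IIx without Running replicate 1, could not be fitted. Depth limits Ckb and Gatm within fibres.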
